A study of Mus musculus with 6 samples.

Results

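The 10 genes described here encode receptors for steroid hormones, thyroid hormone and vitamin D, together with PGRMC1, a membrane protein named for progesterone, and GPER1, a membrane receptor named for estrogen. They were picked by gene name, with earlier results of these data known, and all 10 were found among 48397 genes in the count tables. Islets of the pancreas were isolated from wild-type C57B6 mice and their cells were not separated by type. After overnight recovery in medium with fetal bovine serum, islets received 500 ng/mL of recombinant mouse prolactin for 24 h (3 libraries) or DMSO as the solvent control for 24 h (3 libraries). The labels give neither the sex nor the age of the mice, nor whether each replicate is a separate animal or culture. The p-values therefore reflect only how far these libraries differ, which may be technical.

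Most of these receptors sit inside the cell, bind a hormone that crosses the membrane and then act on DNA as transcription factors, with chaperones, coactivators and corepressors as partners. Estrogen receptors are known to protect rodent beta cells and to support insulin content, glucocorticoid receptor activity dampens insulin secretion, thyroid hormone receptors take part in beta-cell maturation, and the vitamin D receptor is known to be made in islets. In pregnancy the levels of prolactin, placental lactogens, estrogens, progesterone and glucocorticoids are all high, so the islet meets these hormones together. The comparison asks whether prolactin alone was followed by a change in the transcripts of the receptors for the others.

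The transcripts of no receptor passed the test across all genes after a day of prolactin. Esr1, which encodes estrogen receptor alpha, and Gper1 stood apart from the rest: their levels in all 3 prolactin libraries lay above those in all 3 control libraries, by 1.61-fold for Esr1 and 1.73-fold for Gper1, but both are scarce and neither passed. The abundant receptors, Nr3c1 (glucocorticoid), Vdr (vitamin D) and Pgrmc1 among them, had means that differed by less than the SD of control libraries. In edgeR's quasi-likelihood test with Benjamini-Hochberg adjustment over 23924 genes, 0 of the 10 members passed an adjusted p of 0.05, where 0.757% of all genes did. Before adjustment, 2 members had p below 0.05 with a higher level and none with a lower one, against 7.78% of all genes higher and 6.68% lower (14.5% in all). Non-overlapping libraries occurred in 2 of the 10 members, both higher in prolactin, against 11.3% of all genes higher and 10.4% lower (21.6% in all), so that share is near the background. Limma-voom called 0 of the 10, with a background of 0.74%. DESeq2, another count test, called 2 of the 9 members to which it gave an adjusted p, Esr1 and Gper1, with a background of 4.1% higher and 1.6% lower (5.71% in all). The median log2 change of the members was -0.04, against 0.00039 for all genes tested.

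The libraries held 230833584 to 530296257 counts, the deepest being control replicate 1. CPM are counts scaled to a common library size after correction of the totals, and RPKM are the same per kilobase of exon. Prolactin responses were present in the prolactin libraries: the feedback inhibitor Cish stood at 39.8 ± 2.9 CPM in prolactin and 8.16 ± 0.58 CPM in control (SD, n = 3 each), and the prolactin receptor Prlr at 472.5 ± 28.5 and 226.0 ± 11.8 CPM. Xist, the transcript of the inactive X chromosome, ranged from 1194 to 1223 CPM in prolactin libraries and from 1140 to 1398 CPM in control libraries, while 4 Y-linked transcripts had at most 3 counts in any library. Prolactin replicates 2 and 3 were closer to each other than any other replicate pair, with a spread of 4.52 times the counting noise, against 18.3 to 107.3 times for the other pairs.

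Ordered by level per exon length, the members spanned from Pgrmc1 to Esr2. On the RPKM scale Pgrmc1 averaged 114.3 ± 1.5 in prolactin and 117.1 ± 5.5 in control (SD, n = 3 each), a level above that of 99.3% of the 40905 genes with a count in both conditions. Vdr followed with 22.3 ± 1.7 RPKM in prolactin and 23.7 ± 2.7 in control, then Nr3c1 with 19.9 ± 0.5 and 20.8 ± 1.4. This pair overlapped in the control libraries, so its order is not settled by them. Thra averaged 7.96 ± 0.57 RPKM in prolactin and 7.67 ± 0.80 in control. Nr3c2 averaged 2.76 ± 0.27 and 2.87 ± 0.22 RPKM, just above Thrb with 2.41 ± 0.11 and 2.38 ± 0.07. The libraries of Nr3c2 and Thrb did not overlap within either condition, although in prolactin the lowest Nr3c2 library (2.52 RPKM) was almost level with the highest Thrb library (2.51 RPKM). The 4 remaining genes lay lower: Gper1 at 0.492 ± 0.033 RPKM in prolactin and 0.283 ± 0.067 in control, Esr1 at 0.123 ± 0.014 and 0.0762 ± 0.0112, Pgr at 0.0415 ± 0.0105 and 0.0439 ± 0.0065, and Esr2 at 0.0147 ± 0.0103 and 0.0154 ± 0.0032. The order was the same in both conditions. Exon length is that of all exons of a gene merged, which understates the RPKM of a gene such as Esr1 whose 13661 exon bases are not all in one transcript.

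**Figure D1:**
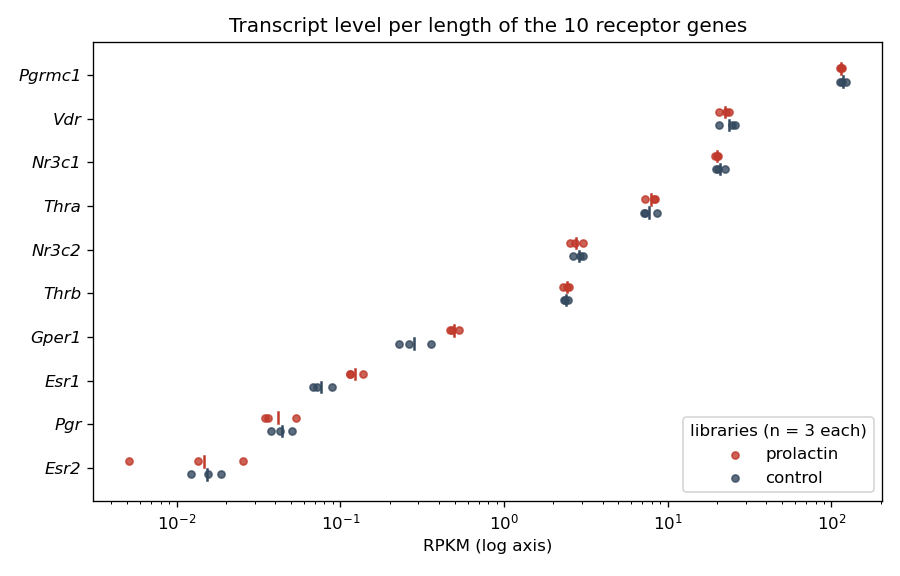
Level per exon length of the 10 receptor genes in RPKM, on a log axis, with a point for each library, prolactin in red above control in blue, and a vertical tick for the mean of 3 libraries. The genes span from Pgrmc1 near 115.7 RPKM to Esr2 near 0.015 RPKM, and the conditions are visibly apart in Esr1 and Gper1.

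Esr1 (chromosome 10, 4611593 to 5005614, plus strand, mm10) encodes estrogen receptor alpha, a ligand-activated transcription factor. Its level was 1.58, 1.89 and 1.57 CPM in prolactin replicates 1, 2 and 3, against 0.979, 0.928 and 1.214 CPM in control replicates 1, 2 and 3. The lowest prolactin library was above the highest control library, which was replicate 3. The log2 change of prolactin over control was 0.69 (SE 0.15, 95% interval 0.35 to 1.03, edgeR adjusted p = 0.0835), so Esr1 did not pass. It rested on 365 to 440 counts per prolactin library and 252 to 526 per control library. The call depended on the method: the adjusted p was 0.0388 without control replicate 3 (log2 change 0.81), 0.0255 with no filter on low counts and 0.000629 by DESeq2, and in the other 13 of 16 alternatives it did not pass. The direction was the same in all 16. In the authors' deposited table the log2 fold change of Esr1 is 0.694 with an adjusted p of 0.000629. These are the same values as in the DESeq2 fit here, so they are no further evidence.

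Gper1 (chromosome 5, 139423151 to 139427800, plus strand) encodes a membrane receptor coupled to G proteins. It stood at 1.18, 1.34 and 1.22 CPM in prolactin replicates 1, 2 and 3, against 0.909, 0.666 and 0.579 CPM in control replicates 1, 2 and 3. The prolactin libraries were close together and the control libraries were spread, with a coefficient of variation of 6.66% in prolactin and 23.8% in control. The log2 change was 0.79 (SE 0.18, 95% interval 0.37 to 1.20, edgeR adjusted p = 0.101). With no filter on low counts the adjusted p was 0.0233 and by DESeq2 0.0016, while the other 14 alternatives did not call it, among them the fit without control replicate 1 (log2 change 1.00, adjusted p = 0.055). The authors' deposited table gives Gper1 a log2 fold change of 0.787 and an adjusted p of 0.0016, again the values of the DESeq2 fit and no further evidence.

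Islets hold connective and vascular cells beside endocrine ones, and in bulk RNA fewer cells of a type and less RNA per cell cannot be told apart. The summed level of 12 fibroblast, stellate-cell and pericyte markers was 962.3 to 1174 CPM in prolactin libraries and 506.0 to 769.6 CPM in control libraries, with 2 of 12 passing the test upwards, 12 of 12 positive and none at 0. That of 10 endothelial markers was 399.8 to 410.8 CPM in prolactin and 344.1 to 393.3 CPM in control, with 1 of 10 passing upwards, 10 of 10 positive and none at 0. In control replicate 3 the stromal markers and Gper1 were at their lowest, while the endothelial markers and Esr1 were at the highest of the control libraries. The 12 acinar markers summed to 2953 CPM there, against 1491 and 511.3 CPM in control replicates 1 and 2. In prolactin libraries their sum was 855.6 to 1941 CPM, with 0 of 12 passing and 0 positive. Without control replicate 3 the log2 change was 0.81 for Esr1 and 0.65 for Gper1 (adjusted p = 0.0836). The part of these cells in the values of Esr1 and Gper1 was not tested.

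**Figure D2:**
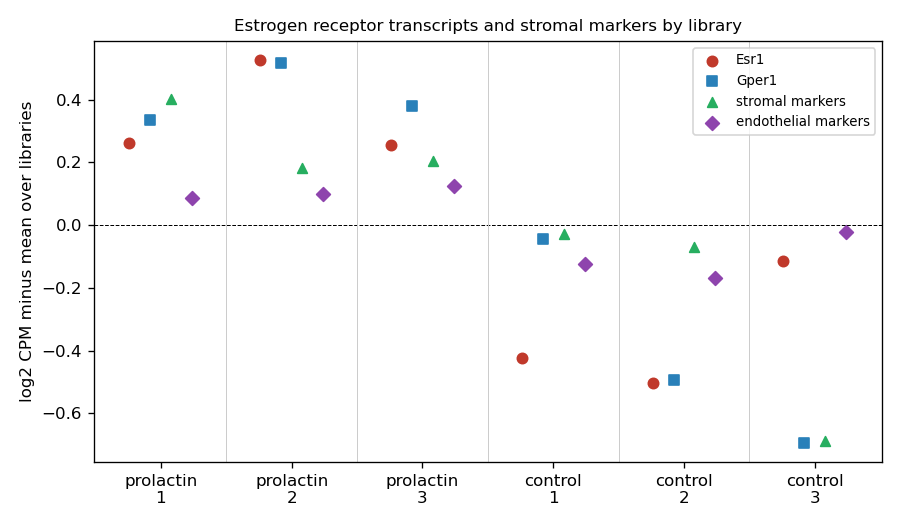
Level of Esr1 and Gper1 (log2 CPM) and of the stromal and endothelial marker lists (mean of log2 of CPM plus 1 over the list) in each of the 6 libraries, each minus its own mean over the libraries. All 4 are above 0 in prolactin libraries and below 0 in control libraries, and in control replicate 3 Gper1 (-0.69) and the stromal list (-0.69) are far below Esr1 (-0.11) and the endothelial list (-0.022).

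STAT5, the transcription factor that the prolactin receptor activates, binds DNA at the palindrome TTCNNNGAA, which reads the same on both strands. Promoter windows of 300 bases, from 250 bases before to 50 after a start site, were taken from RefSeq (GRCm38.p6) for 8 of the 10 genes, with 10 windows in all. Of these 10, 1 held the palindrome, the second Esr1 window (chr10:4709908-4710207, plus strand). The match began 188 bases before the start site. The first Esr1 window (chr10:4611739-4612038, plus strand) and the Gper1 window (chr5:139422929-139423228, plus strand) held none. Both Esr1 windows lie within the gene as the count tables draw it. Over all 32851 windows 8.30% had a match. The estrogen response element GGTCANNNTGACC, also a palindrome, was in 0 of the 10 windows and in 0.0700% of all. A match is a description of letters in the window and not evidence of binding. The sequences of the 2 genes with separated libraries are shown 5′ to 3′, with the palindrome in capitals where present:
Esr1, first window: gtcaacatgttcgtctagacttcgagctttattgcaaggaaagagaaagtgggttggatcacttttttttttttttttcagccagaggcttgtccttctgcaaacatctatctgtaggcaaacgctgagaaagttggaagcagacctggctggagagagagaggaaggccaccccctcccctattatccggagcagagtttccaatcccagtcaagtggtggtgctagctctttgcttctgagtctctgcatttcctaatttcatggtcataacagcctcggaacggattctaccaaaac
Esr1, second window: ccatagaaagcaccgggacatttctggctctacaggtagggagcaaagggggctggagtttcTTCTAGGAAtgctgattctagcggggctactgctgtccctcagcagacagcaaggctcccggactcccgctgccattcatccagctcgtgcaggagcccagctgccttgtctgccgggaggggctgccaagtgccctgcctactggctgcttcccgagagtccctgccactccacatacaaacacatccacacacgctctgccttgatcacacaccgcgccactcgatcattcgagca
Gper1: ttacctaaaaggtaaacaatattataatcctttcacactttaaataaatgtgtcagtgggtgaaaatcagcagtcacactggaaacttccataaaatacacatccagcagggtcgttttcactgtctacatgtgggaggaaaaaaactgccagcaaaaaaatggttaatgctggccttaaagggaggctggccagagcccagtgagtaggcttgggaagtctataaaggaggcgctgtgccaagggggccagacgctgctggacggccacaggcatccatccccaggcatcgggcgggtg

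Esr2 (chromosome 12, 76120419 to 76177259, minus strand), which encodes estrogen receptor beta, was at the limit of detection. It had 4, 20 and 12 counts in prolactin replicates 1, 2 and 3, against 28, 17 and 11 counts in control replicates 1, 2 and 3. The conditions overlapped, and a difference was not detectable at this depth: the log2 change was -0.07 with a 95% interval from -1.25 to 1.10 (SE 0.52, edgeR adjusted p = 0.965). Per exon base Esr1 was 12.1 ± 9.1 times Esr2 in prolactin and 5.19 ± 1.88 times in control, a ratio that the few counts of Esr2 make uncertain.

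For progesterone, the nuclear receptor and the membrane protein named for it were at opposite ends of the range. Pgr (chromosome 9, 8899833 to 8968611, plus strand), the nuclear progesterone receptor and a classic estrogen target in reproductive tissue, had 0.458, 0.297 and 0.310 CPM in prolactin replicates 1, 2 and 3, against 0.324, 0.434 and 0.366 CPM in control replicates 1, 2 and 3. Prolactin replicate 1 was the highest of the 6 and the conditions overlapped (log2 change -0.08, SE 0.23, 95% interval -0.59 to 0.44, edgeR adjusted p = 0.914). Pgrmc1 (chromosome X, 36598206 to 36606079, plus strand), a heme-binding membrane protein, had 215.2, 209.7 and 212.1 CPM in prolactin replicates 1, 2 and 3, against 215.1, 228.6 and 208.5 CPM in control replicates 1, 2 and 3. Control replicate 2 was the highest and the rest were within a few CPM of each other. The log2 change of Pgrmc1 was -0.03 (SE 0.056, adjusted p = 0.829), with a 95% interval from -0.16 to 0.09.

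Corticosteroids act through the glucocorticoid receptor Nr3c1 and the mineralocorticoid receptor Nr3c2, and both were expressed. Nr3c1 (chromosome 18, 39410545 to 39491301, minus strand) had 143.5, 148.4 and 151.3 CPM in prolactin replicates 1, 2 and 3, against 151.5, 165.5 and 145.9 CPM in control replicates 1, 2 and 3. Nr3c2 (chromosome 8, 76899442 to 77245012, plus strand) had 16.3, 17.6 and 19.7 CPM in prolactin replicates 1, 2 and 3, against 17.0, 19.8 and 18.9 CPM in control replicates 1, 2 and 3. In both genes the conditions overlapped. The log2 change was -0.06 for Nr3c1 (95% interval -0.20 to 0.08, edgeR adjusted p = 0.697) and -0.05 for Nr3c2 (95% interval -0.25 to 0.14, adjusted p = 0.822). Per exon base Nr3c1 was 7.24 ± 0.50 times Nr3c2 in prolactin and 7.26 ± 0.52 times in control (SD, n = 3 each). Of the exon bases of Nr3c2, 3.82% are shared with the locus Gm10649 on the opposite strand, which had 19 to 43 counts per library.

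The thyroid hormone receptors Thra and Thrb bind DNA also without hormone, usually paired with a retinoid X receptor. Thra (chromosome 11, 98740638 to 98769006, plus strand) had 33.7, 37.9 and 38.6 CPM in prolactin replicates 1, 2 and 3, against 33.1, 39.7 and 33.4 CPM in control replicates 1, 2 and 3. Thrb (chromosome 14, 17660960 to 18038088, plus strand) had 15.02, 15.9 and 16.5 CPM in prolactin replicates 1, 2 and 3, against 15.2, 16.1 and 15.5 CPM in control replicates 1, 2 and 3. The conditions overlapped in both, and the replicates of Thrb were the tighter. The log2 change was 0.05 for Thra (95% interval -0.14 to 0.24, edgeR adjusted p = 0.818) and 0.02 for Thrb (95% interval -0.12 to 0.16, adjusted p = 0.92). Per exon base Thra was 3.30 ± 0.10 times Thrb in prolactin and 3.22 ± 0.24 times in control. The 3′ end of Thra overlaps that of the clock repressor Nr1d1 on the opposite strand, with 263 shared exon bases (5.70% of those of Thra). The counting used no strand and no option to assign a read to several genes, so a read matching both genes is by default counted for neither. Nr1d1 itself stood at 35.8 ± 4.3 CPM in prolactin and 33.7 ± 4.6 CPM in control (adjusted p = 0.765).

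Vdr (chromosome 15, 97854425 to 97910630, minus strand), the receptor for active vitamin D, had 115.5, 128.9 and 134.1 CPM in prolactin replicates 1, 2 and 3, against 116.6, 138.8 and 145.7 CPM in control replicates 1, 2 and 3. Replicate 1 was the lowest library in each condition, and the conditions overlapped. The log2 change was -0.08 (SE 0.090, 95% interval -0.29 to 0.12, edgeR adjusted p = 0.728). Of the 6 members at 15 CPM or more, Pgrmc1, Nr3c1, Vdr, Thra, Nr3c2 and Thrb, the unadjusted 95% intervals reached at most 0.29 on the log2 scale, which is 1.22-fold. Larger differences than that lie outside their intervals, whereas for Esr2 and Pgr the intervals are too wide for such a statement.

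**Figure D3:**
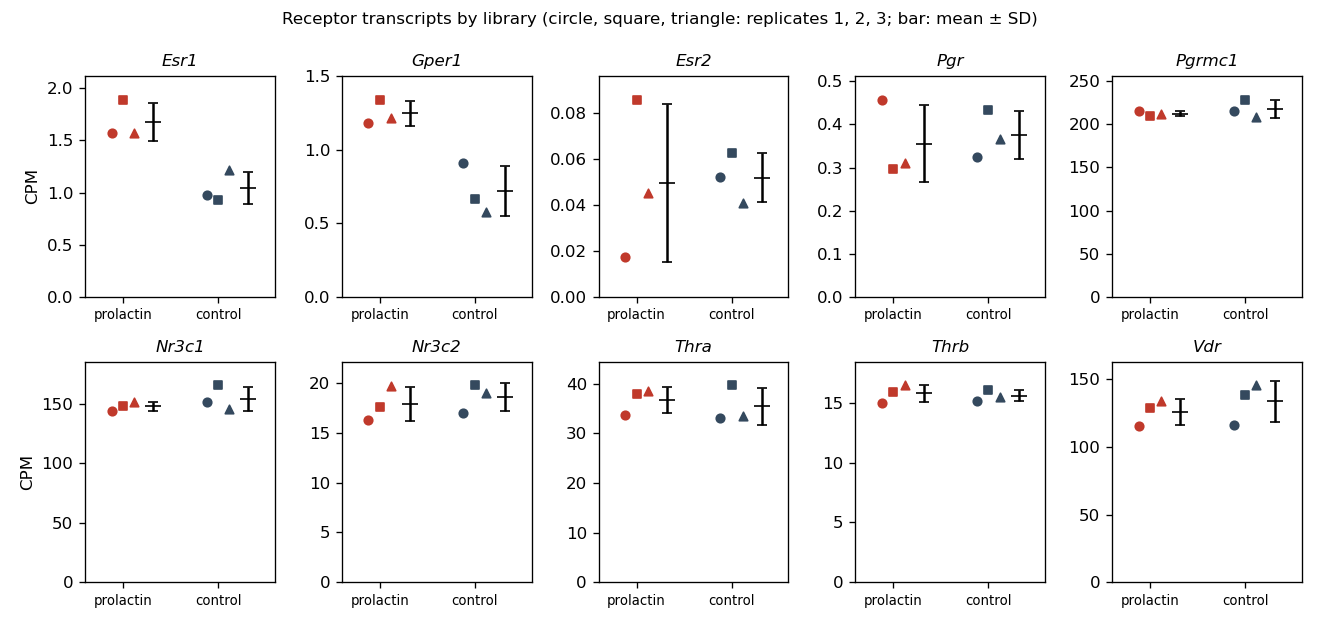
CPM of each receptor gene in the 6 libraries (circle, square and triangle for replicates 1, 2 and 3; prolactin left of control), with the mean ± SD over 3 libraries as a bar; each panel has its own axis from 0. Esr1 and Gper1 are the 2 genes whose conditions do not overlap, and the other 8 overlap.

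**Figure D4:**
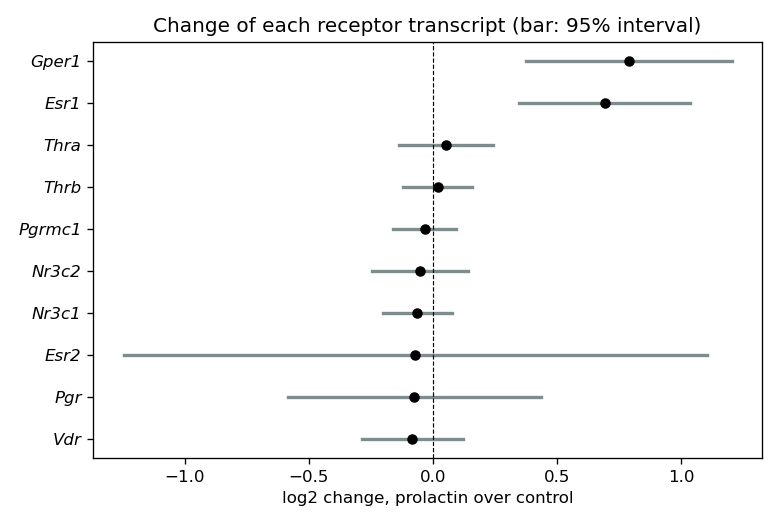
Log2 change of each receptor transcript, prolactin over control, as a point with its unadjusted 95% interval as a bar. The intervals of Gper1 and Esr1 lie above 0 and that of Esr2 runs from -1.25 to 1.10.

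The profile of Esr1 over the 6 libraries was compared with those of 10545 named protein-coding genes at 5 CPM or more, by the root mean square difference of log2 CPM centred on each gene's mean. The nearest were Lrrc36 (0.111), the chemokine gene Cxcl12 (0.118) and Ern1 (0.125), which encodes the endoplasmic reticulum stress sensor IRE1. Lrrc36 averaged 8.44 ± 1.26 CPM in prolactin and 5.10 ± 0.54 CPM in control, and Ern1 467.2 ± 14.2 and 317.5 ± 38.8 CPM. They were picked for their likeness to Esr1, so their changes are no further evidence.

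Other receptors of the superfamily were also largely level. As background for this list and those below, 7.78% of all genes tested had an unadjusted edgeR p below 0.05 upwards. The share downwards was 6.68%, and 50.1% of all changes were positive. Of 12 relatives of the members, 0 passed, and before adjustment 0 reached p below 0.05 upwards and 2 downwards, with a median log2 change of 0.0025. The membrane progestin receptor gene Paqr7 had 5.25 ± 0.05 CPM in prolactin and 6.26 ± 0.55 CPM in control (log2 change -0.25, adjusted p = 0.236). Paqr3, related to Paqr7 by gene name but not counted here as a progestin receptor, had 4.23 ± 0.26 and 5.04 ± 0.59 CPM (log2 change -0.25, adjusted p = 0.338). Estrogen-related receptor gamma, Esrrg, known for its part in beta-cell maturation, had 19.3 ± 2.0 and 17.7 ± 1.6 CPM (adjusted p = 0.597). Among 25 RXR, RAR and other nuclear receptors 0 passed (4 higher and 2 lower unadjusted, 18 positive, median 0.05). The orphan receptor Nr2f2 had the smallest p, with 5.93 ± 0.37 CPM in prolactin and 4.51 ± 0.36 CPM in control (log2 change 0.40, adjusted p = 0.106). The liver X receptor gene Nr1h3 had 8.56 ± 1.24 and 6.81 ± 0.33 CPM (log2 change 0.33, adjusted p = 0.216), and the immediate-early receptor Nr4a2 24.1 ± 4.1 and 30.6 ± 4.3 CPM (log2 change -0.35, adjusted p = 0.282). Rxra, the partner of Vdr, Thra and Thrb, had 70.9 ± 0.9 and 64.3 ± 4.1 CPM (adjusted p = 0.307).

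Genes that set the supply of hormone to the receptors did not pass either. In the list of thyroid hormone transport and deiodination, 0 of 11 passed (4 higher and 0 lower unadjusted), and all 11 changes were positive with a median of 0.24, against 50.1% positive among all genes tested. Dio1, a deiodinase that can make active hormone from thyroxine, had 59.4, 63.8 and 64.7 CPM in prolactin replicates 1, 2 and 3, against 51.3, 57.5 and 50.9 CPM in control replicates 1, 2 and 3 (log2 change 0.24, SE 0.064, edgeR adjusted p = 0.149). Dio2, the activating deiodinase of brain and brown fat, had 2.11, 2.27 and 2.49 CPM in prolactin replicates 1, 2 and 3, against 1.54, 1.58 and 0.919 CPM in control replicates 1, 2 and 3 (log2 change 0.76, SE 0.20, adjusted p = 0.135). In both genes the prolactin libraries lay above the control ones, and control replicate 3 was the lowest. Crym, a cytosolic thyroid hormone binding protein, had 1.47 ± 0.08 CPM in prolactin and 1.13 ± 0.19 CPM in control (log2 change 0.37, adjusted p = 0.298). Alpha-cell markers, among which the list's thyroxine carrier gene Ttr also stands, summed to 35304 to 36603 CPM in prolactin and 23661 to 37675 CPM in control, lowest in control replicate 3, with 1 of 7 passing upwards, 5 of 7 positive and none at 0. Their part in the values of the thyroid list was not tested.

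Of 7 genes of corticosteroid activation and inactivation 0 passed (2 higher and 1 lower unadjusted, median -0.04). Hsd11b1, which regenerates active glucocorticoid in the cell, had 6.81, 5.08 and 5.11 CPM in prolactin replicates 1, 2 and 3, against 4.81, 4.37 and 2.79 CPM in control replicates 1, 2 and 3 (log2 change 0.50, SE 0.20, edgeR adjusted p = 0.292). Its highest and lowest libraries, prolactin replicate 1 and control replicate 3, are also those of the stromal markers, whose part in this was not tested. H6pd, which supplies the cofactor of Hsd11b1, had 99.9 ± 1.5 CPM in prolactin and 102.9 ± 7.1 CPM in control (adjusted p = 0.8). Srd5a3, placed here by its name as a steroid reductase, had 24.9 ± 1.4 and 27.5 ± 0.3 CPM (log2 change -0.14, adjusted p = 0.299). Hsd11b2, which inactivates glucocorticoid, had 0.469 ± 0.142 CPM in prolactin and 0.293 ± 0.018 CPM in control (adjusted p = 0.238). In the list of sex steroid synthesis and inactivation 12 of 21 matched genes could be tested and 0 passed. Before adjustment 0 were higher and 3 lower, where 6.68% of all genes were lower. Of the 12 changes, most of them in Hsd17b genes, 1 was positive, against 50.1% of all genes, and the median was -0.15. Hsd17b11 had 30.3 ± 0.5 and 34.3 ± 2.3 CPM (log2 change -0.18, adjusted p = 0.23), Hsd17b10 23.6 ± 0.6 and 27.4 ± 3.2 CPM (adjusted p = 0.282), and Hsd17b4 55.1 ± 1.2 and 60.2 ± 3.1 CPM (adjusted p = 0.329). The aromatase gene Cyp19a1 was too low to test, with 0.0158 ± 0.0152 CPM in prolactin and 0.0198 ± 0.0155 CPM in control. So were Cyp11a1, with 0.0237 ± 0.0099 and 0.0316 ± 0.0357 CPM, and Hsd3b1, Hsd3b2 and Hsd3b6. The signs counted for this list therefore leave these genes out. Of 7 genes of vitamin D activation and inactivation 0 passed (0 before adjustment), with a median of 0.06, and Cyp27b1, which makes the active hormone, had 1.18 ± 0.099 and 1.13 ± 0.25 CPM (adjusted p = 0.907). The vitamin D binding protein gene Gc had 215.4 ± 5.3 CPM in prolactin and 205.0 ± 38.6 CPM in control (adjusted p = 0.83).

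Among the proteins that work with the receptors, 0 of 12 chaperones and co-chaperones passed (0 before adjustment), with a median of -0.04. Fkbp5, a co-chaperone and itself a sensitive glucocorticoid target, had 80.9 ± 0.8 CPM in prolactin and 79.4 ± 3.3 CPM in control (edgeR adjusted p = 0.852). Its relative Fkbp4 had 231.5 ± 2.1 and 249.95 ± 23.5 CPM (adjusted p = 0.537). The chaperone gene Hsp90aa1 had 356.9 ± 3.2 and 390.8 ± 59.3 CPM (adjusted p = 0.613), and the co-chaperone gene Dnajb1 38.7 ± 0.3 and 41.2 ± 3.0 CPM (adjusted p = 0.558). Of 20 coactivators and corepressors 0 passed (4 higher and 0 lower unadjusted, median 0.07). The methyltransferase coactivator Carm1 had 42.9 ± 1.6 and 37.6 ± 3.2 CPM (log2 change 0.19, adjusted p = 0.263) the corepressor-complex gene Tbl1x 171.5 ± 4.6 and 155.3 ± 5.6 CPM (log2 change 0.14, adjusted p = 0.278), and the corepressor Nrip1, also a known estrogen target, 49.1 ± 0.5 and 44.7 ± 2.2 CPM (log2 change 0.13, adjusted p = 0.296).

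Genes known as targets of these receptors in other tissues gave 4 calls over 4 lists, and in 159 genes tested over all related lists 2 rose and 2 fell, where 0.652% of all genes were higher and 0.104% lower. In the glucocorticoid list 1 of 20 rose and 2 fell (4 higher and 2 lower unadjusted), with a median of 0.06. Pdk4, a kinase that shuts off pyruvate dehydrogenase, had 69.2 ± 2.6 CPM in prolactin and 45.9 ± 5.8 CPM in control (log2 change 0.59, SE 0.085, edgeR adjusted p = 0.0214). The metallothionein genes Mt1 and Mt2, which also respond to metals, fell to 458.8 ± 53.9 and 280.7 ± 29.9 CPM in prolactin, against 765.1 ± 126.1 and 501.2 ± 86.0 CPM in control (adjusted p = 0.0449 and 0.0278); their sequences are close and reads may be divided between them. Pdk4 and Mt2 did not pass without prolactin replicate 1, 2 or 3 or control replicate 2 (adjusted p from 0.052 to 0.134), and Mt1 did not pass without any library other than control replicate 1 (adjusted p from 0.0541 to 0.173). Among those next by p, Ddit4 had 88.9 ± 2.2 CPM in prolactin and 81.5 ± 3.2 CPM in control (adjusted p = 0.32), and Klf9 85.1 ± 6.1 and 74.3 ± 7.7 CPM (adjusted p = 0.329). The better-known targets Tsc22d3, Per1 and Sgk1 had log2 changes of -0.06, 0.03 and -0.03, with adjusted p of 0.779, 0.9 and 0.833; these 3 were picked after their values were seen.

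In the list of estrogen and progesterone receptor targets 1 of 17 rose (5 higher and 0 lower unadjusted) and the median was 0.10. Of all genes tested, 0.652% rose, and before adjustment 7.78% were higher and 6.68% lower. Cxcl12 had 13.4, 14.1 and 13.8 CPM in prolactin replicates 1, 2 and 3, against 9.34, 8.04 and 9.41 CPM in control replicates 1, 2 and 3 (log2 change 0.63, SE 0.077, edgeR adjusted p = 0.00966). It did not pass without prolactin replicate 2 (adjusted p = 0.0774) or 3 (adjusted p = 0.0709). Wnt4, a secreted ligand downstream of the progesterone receptor in mammary gland, had 203.1 ± 34.9 CPM in prolactin and 123.4 ± 17.3 CPM in control, short of the threshold (log2 change 0.72, SE 0.14, adjusted p = 0.0564). Igfbp4, which binds insulin-like growth factors, had 16.1 ± 5.1 and 8.49 ± 3.71 CPM (log2 change 0.92, SE 0.30, adjusted p = 0.211). Igfbp4 was highest in prolactin replicate 1 (22.0 CPM) and lowest in control replicate 3 (5.60 CPM), as the stromal markers were. Those markers, at 962.3 to 1174 CPM in prolactin and 506.0 to 769.6 CPM in control with 12 of 12 positive, were higher in prolactin as Cxcl12 was, whose control libraries were lowest in replicate 2. Their part in the values of either gene was not tested. The list contains Pgr, which did not pass. Of 14 thyroid hormone receptor targets 0 passed (3 higher and 2 lower unadjusted, 5 positive, median -0.02). Thrsp, a lipogenic gene named for its response to thyroid hormone, had 2.18 ± 0.15 CPM in prolactin and 3.10 ± 0.21 CPM in control (log2 change -0.51, SE 0.11, adjusted p = 0.0782). The mitochondrial glycerol phosphate dehydrogenase gene Gpd2 had 166.1 ± 3.0 and 187.8 ± 6.1 CPM (log2 change -0.18, adjusted p = 0.173). Dio1, also in this list, went the other way (log2 change 0.24, adjusted p = 0.149). Of 10 vitamin D receptor targets 0 passed (1 higher and 1 lower unadjusted, median 0.05), and Cyp24a1, its most sensitive target in kidney, was near the detection limit at 0.122 ± 0.022 CPM in prolactin and 0.134 ± 0.034 CPM in control (adjusted p = 0.843). The tight junction gene Cldn12 had 56.4 ± 0.8 and 62.8 ± 2.6 CPM (log2 change -0.16, adjusted p = 0.213), the calcium-sensing receptor gene Casr 79.8 ± 7.3 and 72.6 ± 6.9 CPM (adjusted p = 0.525), and the calcium pump gene Atp2b1 239.1 ± 7.5 and 229.1 ± 8.6 CPM (adjusted p = 0.675).

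**Figure D5:**
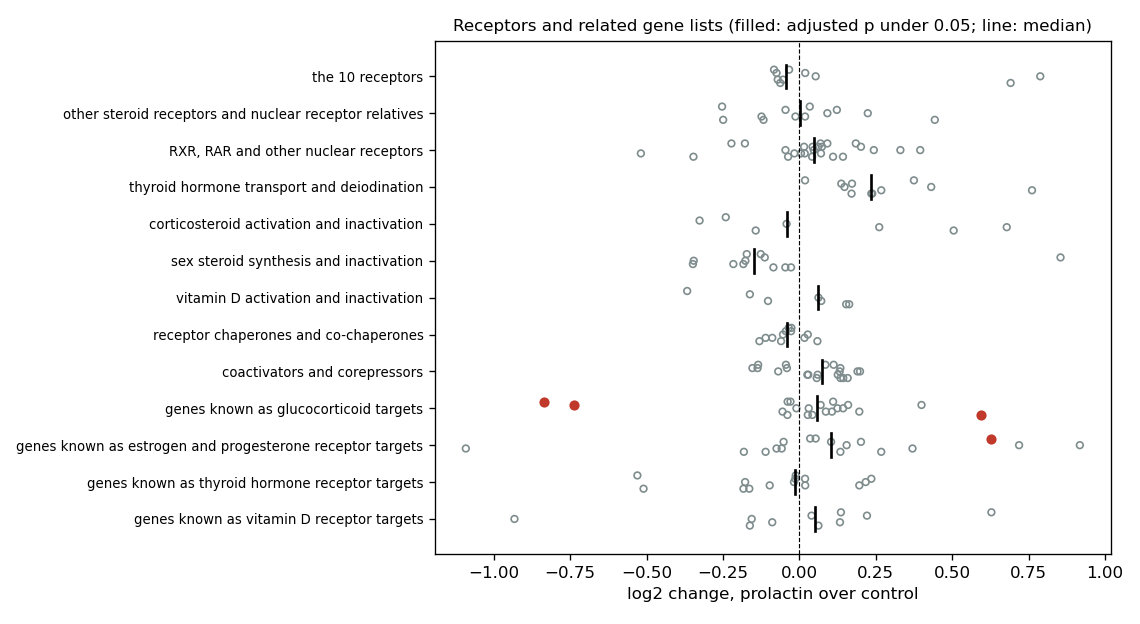
Log2 change, prolactin over control, of each tested gene of the receptors and of 12 related lists, with a short line at each list's median and filled points for genes with an adjusted p under 0.05. The filled points are Mt2, Mt1, Pdk4 and Cxcl12, and the 11 genes of thyroid hormone transport and deiodination all lie above 0.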

How the data were processed

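Polyadenylated RNA of 3 prolactin and 3 control islet libraries was prepared with a NEBNext Ultra II kit and read on a NovaSeq X Plus instrument, as the labels' protocols state. Per the file headers, the deposited read counts, never scaled, were made by featureCounts 2.0.3 over GENCODE vM10 exons joined under each gene's name. The command has no strand option and no option to count read pairs as 1, and 53.9% to 56.3% of counts from 1 to 20 were even, so both mates of a pair may be counted. Per the submitters' processing notes the build is mm10 and the tools include SAMtools 1.21, Subread 2.1.0 and DESeq2, with no aligner named. In the authors' deposited table each gene has a mean signal over libraries, a log2 fold change and its error, a test score, and raw and adjusted p-values.

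Genes were tested in edgeR 4.0.16 (R 4.3.3) after TMM scaling and a filter (minimum count 10, minimum total 15) that kept 23924 of 48397 genes, by a quasi-likelihood fit (legacy option on) of prolactin against control, two-sided, and p-values were adjusted by Benjamini-Hochberg over those genes and called under 0.05. SE and 95% intervals come from the test statistic. CPM and RPKM use TMM-scaled totals. Total counts ranged from 230833584 to 530296257; no interval from counts alone is given. The procedure was tested on simulated data. Members and lists were chosen with earlier results of these data known. Named are all members, list genes that passed, up to 3 more per list with the smallest p at a mean of 1 CPM or more, 3 genes most like the member with the smallest p, and genes sharing exons with a member; Socs2, also in the rule, rose with Cish and Prlr, and 1 gene the rule names is not reported here. Rxra, Hsd11b2, Cyp19a1, Fkbp5, Cyp24a1, Tsc22d3, Per1 and Sgk1 were named after their values were seen. List entries matched in 281 of 282 cases. Alternatives were DESeq2 1.42.0, limma-voom (limma 3.58.1), 2 other scalings, 2 other filters, a replicate block, leaving out each library, summing prolactin replicates 2 and 3, halved counts and, added after the data were seen, the legacy option off.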

Additional observations from a re-analysis of the deposited data

How the results depend on the processing

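Both Esr1 and Gper1 kept a positive change in all 16 alternatives, with log2 changes from 0.60 to 0.81 and from 0.65 to 1.00, and an unadjusted p under 0.05 in each of the 16. Members higher in prolactin numbered 2 with no filter on low counts, 2 by DESeq2 and 0 to 1 over the fits that left out 1 library (1 without control replicate 3), and 0 members were lower in any of the 16. Changes near 0 turned sign: over the fits without 1 library the log2 change ranged from -0.70 to 0.32 for Esr2, -0.30 to 0.041 for Pgr, -0.063 to 0.0019 for Pgrmc1, -0.13 to 0.0070 for Nr3c2 and -0.014 to 0.052 for Thrb, and that of Pgr was 0.011 with prolactin replicates 2 and 3 summed. Over all genes 156 were higher and 25 lower, which became 470 and 127 with no filter on low counts, 776 and 303 by DESeq2, 42 and 2 with prolactin replicates 2 and 3 summed, and 39 to 342 and 1 to 234 over the fits without 1 library; 46 were lower with a filter of 1 CPM in 3 libraries. Of the related genes, 2 rose and 2 fell; 5 rose with no filter, 8 by DESeq2, 0 with prolactin replicates 2 and 3 summed, where 0 fell, and over the fits without 1 library 0 to 2 rose and 0 to 6 fell. Among the fits without 1 library, only that without control replicate 3 called more genes over all genes than the main fit (342 higher and 234 lower). Each of the others called fewer, at most 121 higher and 15 lower. Fits without a library have fewer samples, and the cause of these shifts was not tested.

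With the replicate number as a block, 464 genes were higher and 134 lower, 4 related genes rose and 2 fell, and 0 members passed (Esr1 adjusted p = 0.066, Gper1 0.0561). The numbers are not taken as pairs: same-numbered deviations from the group means correlated at 0.54, 0.32 and 0.087 over 11590 genes, and prolactin replicate 3 was nearer to control replicate 2 (0.35). At the depth of these libraries Esr2, with 4 to 28 counts, and Pgr, with 69 to 174, allow no statement on small differences.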
